A study of Mus musculus with 11 samples.

Results

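Nuclear oxidative phosphorylation (OXPHOS) genes are the genes of the cell nucleus that encode subunits and assembly factors of the respiratory chain and of ATP synthase in the inner membrane of the mitochondrion. The genes described here were taken by symbol from the GENCODE annotation of the mouse genome build mm9: every protein-coding gene whose symbol starts with Nduf, with Sdha, Sdhb, Sdhc or Sdhd, with Uqcr, with Cox4 to Cox8 or with Atp5. The rule took 94 of 22380 protein-coding genes, called members below. It used no measured value.

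The study compared midbrain dopaminergic (DA) neurons with hindbrain serotonergic (5-HT) neurons of mouse embryos at embryonic day 14.5 by ATAC-seq, an assay in which a transposase cuts accessible DNA. DA neurons were the GFP-positive cells of TH-GFP embryos, a line kept on C57BL/6J background in which a transgene with the rat Th promoter drives GFP, and gave 3 libraries. 5-HT neurons were the YFP-positive cells of Mash1-CRE x ROSA YFP embryos, in which Cre from the Mash1 locus turns on YFP, and gave 2 libraries. In both groups, transgenic males had been mated with Swiss wild-type females, and cells were sorted by FACS from pooled embryos. Mash1 is active in progenitors of several neuron types, so the second sort rests on the dissected region as well as on the reporter.

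Complexes I to IV of the chain pass electrons from NADH and succinate to oxygen, complexes I, III and IV pump protons, and complex V, the ATP synthase, uses the proton gradient to make ATP. Most of their subunits are encoded in the nucleus and a few, which are not among the members, in mitochondrial DNA. Several nuclear subunits have a ubiquitous form and a form restricted to heart and muscle, lung, testis or hypoxic cells. In the adult, midbrain DA neurons of the substantia nigra fire without pause, have a high energy demand and are sensitive to inhibitors of complex I.

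All 5 files list the same regions with a deposited score per library, whose scale the study does not name. A score of 0 stands for no peak in that library. DA replicates 1, 2 and 3 had 52861, 93055 and 94351 peaks, and 5-HT replicates 1 and 2 had 38772 and 22879. The lowest score above 0 lay between 2.83 and 3.45 in every library, and read depth is not in the files. Of the peaks, 25.7%, 16.6% and 15.5% in the DA libraries and 33.5% and 46.3% in the 5-HT libraries lay at a promoter of a protein-coding gene, meaning that they overlapped 1 kb upstream to 100 bp downstream of a transcription start site (TSS). A library with fewer peaks thus holds relatively more promoter peaks. Peak yield and cell type cannot be told apart with these libraries, and neither can accessibility per cell and the share of cells in which a promoter is accessible.

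The labels of the libraries were checked at the promoters of marker genes. Of 9 DA markers, 9 had a promoter peak in each DA library and 6 in each 5-HT library, with summed scores of 68.0, 70.3 and 61.0 against 30.4 and 19.8. Sums of different libraries are on no common scale: the median score of all promoters with a peak was 7.70, 9.37 and 7.98 in the DA libraries and 5.71 and 4.35 in the 5-HT libraries. Pitx3 had the highest mean score of that list. In the limma comparison described below, the differences, DA minus 5-HT, of the 5 DA markers with a peak in every library were 0.79 for Pitx3 (adjusted p 0.116), 0.23 for Foxa2, 0.03 for En1 and for Ddc and -0.06 for Nr4a2. The other 4, Th, Lmx1a, Slc6a3 and Slc18a2, lacked a peak in a 5-HT library and were not in that comparison. The promoter of the mouse Th gene itself, which is not the transgene of the sort, had scores of 9.91, 10.6 and 8.45 in the DA libraries and 0 in both 5-HT libraries, and Lmx1a showed the same pattern with 5.00, 5.62 and 4.09. The 5-HT markers gave a mixed picture. Of 6 of them, 4, 5 and 4 had a promoter peak in the DA libraries against 5 and 2 in the 5-HT libraries, with summed scores of 27.7, 29.4 and 25.5 against 24.8 and 11.1. Tph2, with the highest mean score of that list, had a peak in all 5 libraries, with a normalized log2 difference of 0.047. Gata3, the other with a peak in all 5, had a difference of -0.92 with an adjusted p of 0.188 in that comparison. Its scores were 6.98, 4.52 and 4.65 in the DA libraries and 5.17 and 7.51 in the 5-HT libraries. Fev had a peak in 5-HT replicate 1 alone (3.88), and Slc6a4, the serotonin transporter gene, had scores of 4.80, 6.56 and 3.76 in the DA libraries and 0 in both 5-HT libraries. The 5-HT group is called by its label below.

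Lists of other cells ranged from peaks at every gene to none. GABA neuron markers had 3, 3 and 3 of 3 in the DA libraries and 3 and 2 in the 5-HT libraries, with summed scores of 14.9, 13.9, 12.9, 13.3 and 6.60, highest for Gad2. In the limma comparison, the normalized differences, DA minus 5-HT, were -0.32 for Gad1 (adjusted p 0.323) and -0.38 for Gad2 (adjusted p 0.271). Slc32a1 lacked a peak in 5-HT replicate 2 and was not in that comparison. Its scores were 5.07, 4.76 and 3.92 in the DA libraries and 3.69 and 0 in the 5-HT libraries. Pericyte markers had 2, 4 and 3 of 4 in the DA libraries and 1 and 1 in the 5-HT libraries, with summed scores of 9.09, 17.6, 13.8, 4.38 and 3.06, highest for Kcnj8. Endothelial markers had 1 of 2 in each library but 5-HT replicate 2, which had 0, from Cldn5 alone. Astrocyte markers had 1, 2, 2, 1 and 0 of 2, with Gfap highest. The lists of microglia (2 genes), striated muscle (3) and germ cells (3) had no promoter peak in any library.

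Nearly every ubiquitous OXPHOS gene had an open promoter in every library. Of the 94 members, 85, 86 and 85 had a promoter peak in the DA libraries and 85 and 83 in the 5-HT libraries. Among all 22380 protein-coding genes the shares with a peak were 59.7%, 63.6%, 61.9%, 58.2% and 49.5% in the same order. In all 5 libraries together 83 members (88.3%) had a peak, beside 48.4% of all protein-coding genes, and 8 members (8.51%) had none in any library, beside 34.9%. A peak in each DA library without any in the 5-HT libraries, a pattern of 1.98% of all genes, was found at 0 members, and the reverse pattern, that of 0.0134% of all genes, also at 0. These background shares depend on peak yield: with as many of the highest peaks in each library as in the library with the fewest, the DA pattern was found at 94 and the reverse pattern at 507 of all 22380 genes, and each at 0 members. Without 5-HT replicate 1, the DA pattern was found at 2 members, Ndufaf1 and Atp5l, and at 2219 of all 22380 genes.

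Height of the signal was compared within a library, since scores of different libraries need not share a scale. The median member with a peak stood at the percentiles 88.7, 94.7 and 93.8 among all peaks of DA replicates 1, 2 and 3, and at 81.9 and 77.8 in 5-HT replicates 1 and 2. All protein-coding promoters with a peak had medians of 79.3, 88.2, 87.5, 74.0 and 69.5. Because the share of promoter peaks differs between the libraries, a percentile among the promoters of protein-coding genes with a peak, which has its median over all genes in the middle of the scale, is used from here on and called the promoter percentile. On that scale the members had medians of 66.8, 70.3 and 68.0 in the DA libraries and 62.6 and 60.7 in the 5-HT libraries. Promoters with a peak in every library also stood higher in DA as a whole on this scale. The median difference in promoter percentile, DA minus 5-HT, was 6.72 points over the 83 such members and 4.23 over all 10843 such genes. Of the members 73.5% were positive, beside 66.8% of all. The scale ranks them among all promoters with a peak. These numbered 13372, 14238 and 13863 in the DA libraries and 13022 and 11088 in the 5-HT libraries. The shift therefore cannot be told apart from peak yield. Of the 83 members with a peak in every library, 38 (45.8%) lay above the median in all 5, beside 38.9% of all such genes. The ranks of the members were compared between libraries. Over the 80 genes of the complexes and their assembly factors with a peak in every library, Spearman's rho of the scores was 0.832, 0.872 and 0.834 between DA libraries, 0.694 between the 5-HT libraries and 0.634 to 0.786 between a DA and a 5-HT library. All protein-coding genes with a peak in every library had a higher rho in each of these pairs of libraries, such as 0.914 between DA replicates 1 and 3 and 0.741 between the 5-HT libraries. These genes share the libraries and are not independent replicates, so the coefficients are a description.

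**Figure D1:**
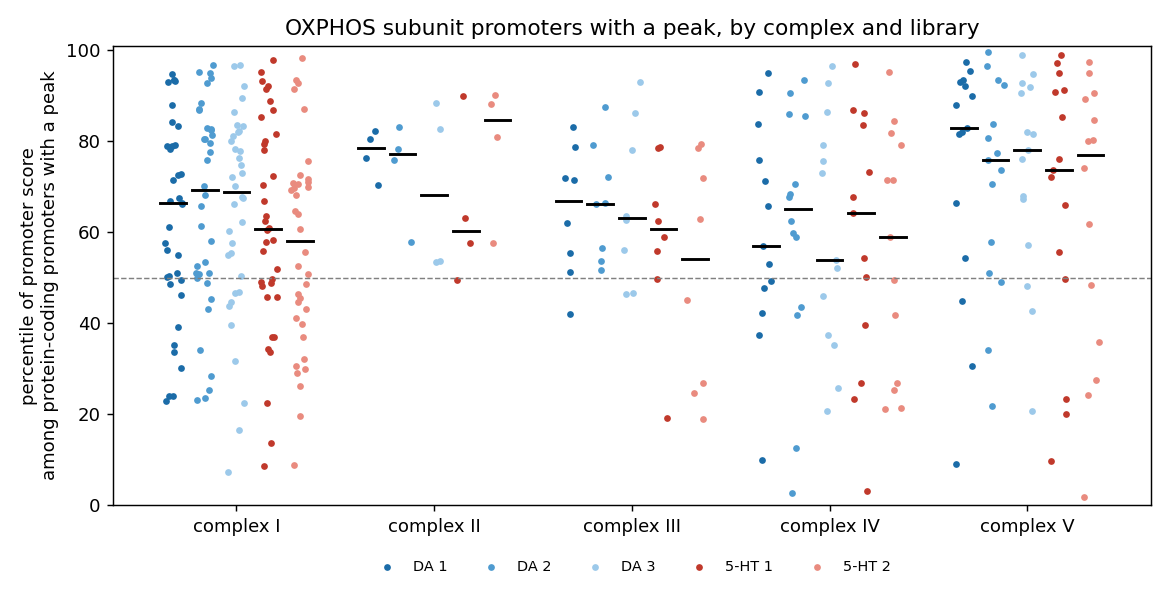
Promoter percentile (vertical axis, percentile of the score among protein-coding promoters with a peak in the library) of each gene of complexes I to V in the 5 ATAC-seq libraries, without assembly factors. Each point is a gene, black bars are medians and the dashed line is the median of all promoters; complex V has the highest median in DA replicates 1 (82.9) and 3 (78.1) and 5-HT replicate 1 (73.6), and complex II in DA replicate 2 (77.2) and 5-HT replicate 2 (84.7).

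Complex I, the NADH dehydrogenase, had 36 members, all of them with a promoter peak in all 5 libraries. Its median promoter percentiles were 66.4, 69.2 and 68.9 in the DA libraries and 60.8 and 58.2 in the 5-HT libraries. Ndufb5, an accessory subunit of the membrane arm, had the highest mean percentile of the complex and stood at the promoter percentiles 93.0, 95.4, 96.7, 95.3 and 98.3 in DA replicates 1 to 3 and 5-HT replicates 1 and 2. It was high in every library. Ndufa10, also an accessory subunit, had the lowest, at 30.1, 23.6, 31.7, 8.54 and 30.1. Its promoter was open in every library and among the lower part of open promoters in each.

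The 4 assembly factor genes of complex I (Ndufaf1 to Ndufaf4) help to build the complex and are not part of it. Ndufaf4 had the highest mean percentile of those with a peak in every library, at promoter percentiles of 81.6, 79.9, 85.4, 88.8 and 52.7. Ndufaf3 had the lowest, at 43.8, 70.4, 35.0, 57.9 and 68.0. Ndufaf1 had scores of 7.33, 7.19, 7.43 and 5.33 in the DA libraries and 5-HT replicate 1, and no peak in 5-HT replicate 2, the library with the fewest peaks.

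Complex II, succinate dehydrogenase, takes part in the citric acid cycle and has 4 subunits, all encoded in the nucleus. All 4 genes had a promoter peak in every library, with median promoter percentiles of 78.5, 77.2 and 68.2 in the DA libraries and 60.4 and 84.7 in the 5-HT libraries. Sdha, the catalytic flavoprotein, had the highest mean percentile, at 82.3, 76.0, 82.7, 90.0 and 90.1. Sdhd, a membrane anchor, had the lowest, at 70.4, 78.4, 53.4, 63.1 and 57.7. The 5-HT values of Sdha lay above its DA values, and those of Sdhd lay within the range of its DA values. Of the 2 assembly factors, Sdhaf1, needed for the iron-sulfur subunit, stood at 54.7, 77.4, 73.1, 77.0 and 60.4, and Sdhaf2, which helps to attach the flavin to Sdha, at 31.9, 55.8, 27.7, 19.3 and 35.2.

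Complex III, the cytochrome bc1 complex, had 8 members, all with a peak in every library and with median promoter percentiles of 66.9, 66.3, 63.2, 60.8 and 54.1. Uqcrfs1, the Rieske iron-sulfur protein, had the highest mean percentile, at 83.2, 87.5, 93.0, 78.6 and 79.3. Uqcr11, a small accessory subunit, had the lowest, at 62.2, 66.2, 46.4, 19.2 and 19.0. Both 5-HT values of Uqcr11 lay below its 3 DA values.

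Complex V had 15 members, of which 14 had a peak in every library. Its median promoter percentiles, 82.9, 75.9 and 78.1 in the DA libraries and 73.6 and 77.1 in the 5-HT libraries, were above those of complexes I, III and IV in each library. Atp5g1 had the highest mean percentile, at promoter percentiles of 97.5, 99.8, 98.9, 99.0 and 89.4. It is 1 of 3 genes that encode the same mature subunit c of the rotor ring. The other genes for subunit c, named after their values were seen, stood lower: Atp5g2 at 93.1, 75.9, 67.3, 76.2 and 80.1, and Atp5g3 at 44.9, 34.1, 48.2, 9.84 and 48.4. The order of the subunit c genes was Atp5g1, Atp5g2, Atp5g3 in each of the 5 libraries. Atp5a1, the alpha subunit of the catalytic head, had the lowest mean percentile of complex V among genes with a peak in every library, at 30.7, 51.0, 42.7, 23.4 and 1.78. Atp5l, which encodes subunit g of the membrane part, had low scores of 4.33, 5.94, 5.16 and 4.39 in the DA libraries and 5-HT replicate 1 and no peak in 5-HT replicate 2.

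Complex IV, cytochrome c oxidase, had 20 members by symbol, with Ndufa4 and Ndufa4l2 counted here because the Ndufa4 protein is a subunit of this complex. Its 12 ubiquitous genes had a promoter peak in every library, with median promoter percentiles of 61.5, 68.1, 63.5, 66.1 and 65.3. Cox7c, a small structural subunit, had the highest mean percentile, at 95.1, 93.6, 96.6, 96.9 and 71.4. Its value in 5-HT replicate 2 was lower than in the other libraries. Cox6b2, the testis form of subunit 6b, had the lowest, at 9.92, 12.5, 20.8, 3.24 and 21.1.

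The contrast within complex IV was between forms. Of the 81 ubiquitous genes of all complexes and assembly factors, 81 had a promoter peak in each DA library and in 5-HT replicate 1, and 79 in 5-HT replicate 2. Of the 8 genes for tissue-restricted forms, 1, 2, 1, 1 and 1 had a promoter peak in the 5 libraries, and 6 had none in any library. The restricted genes are few and were listed by name, so the counts are a description.

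Cox4i1 encodes the common form of subunit 4, which takes part in regulation of the enzyme by ATP, and had scores of 6.65, 8.59, 5.65, 4.68 and 3.45 in DA replicates 1 to 3 and 5-HT replicates 1 and 2. Cox4i2, the form of lung that is also known from pericytes of the brain, had a peak in DA replicate 2 alone, with a score of 3.46. DA replicate 2 was also the library with a peak at all 4 pericyte markers; their part in the Cox4i2 peak was not tested. Cox6a1, the form of subunit 6a in most tissues, had scores of 9.31, 12.0, 7.57, 8.13 and 4.73. Cox6a2, its form in heart and skeletal muscle, had no promoter peak; the nearest region lay 1922 bp upstream of its TSS and had a peak in the DA libraries alone (5.03, 5.36 and 4.46).

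Cox6b1 had scores of 7.02, 10.7, 6.72, 6.74 and 3.62. Cox6b2, its testis form, was the restricted gene with a peak in all 5 libraries, with scores of 4.40, 4.72, 5.17, 3.54 and 3.45. These were lower than those of Cox6b1 in each library, and the region at Cox6b2 measured 408 bp, beside a median of 1020 bp at ubiquitous genes. Cox7a2 had scores of 14.1, 15.9, 17.0, 7.12 and 8.76, among the highest of the complex. Cox7a1, its heart and muscle form, had no promoter peak, while a region 2410 bp upstream of its TSS had a peak in the DA libraries alone (6.06, 9.85 and 6.38).

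Cox7b had scores of 8.0, 11.9, 8.22, 5.22 and 3.57, and Cox7b2, its testis form, had no promoter peak. Cox8a had scores of 12.0, 17.9, 12.1, 8.57 and 6.28. Neither Cox8b, the form of heart, muscle and brown fat, nor Cox8c, the testis form, had a promoter peak. The nearest region of Cox8b lay 2883 bp upstream and had a peak in DA replicates 2 and 3 (6.10 and 3.98), and that of Cox8c lay 809 bp downstream with a peak in 5-HT replicate 2 alone (2.87). Ndufa4 had scores of 9.98, 11.1, 11.5, 6.52 and 6.56. Ndufa4l2, the form induced by hypoxia, had no promoter peak, but a region 1267 bp upstream of its TSS had a peak in all 5 libraries, with scores of 7.04, 10.9, 13.1, 10.1 and 3.84. Whether these regions act on the named genes is not measured here. Striated muscle and germ cell markers, which belong to the tissues of most restricted forms, had no promoter peak either.

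**Figure D2:**
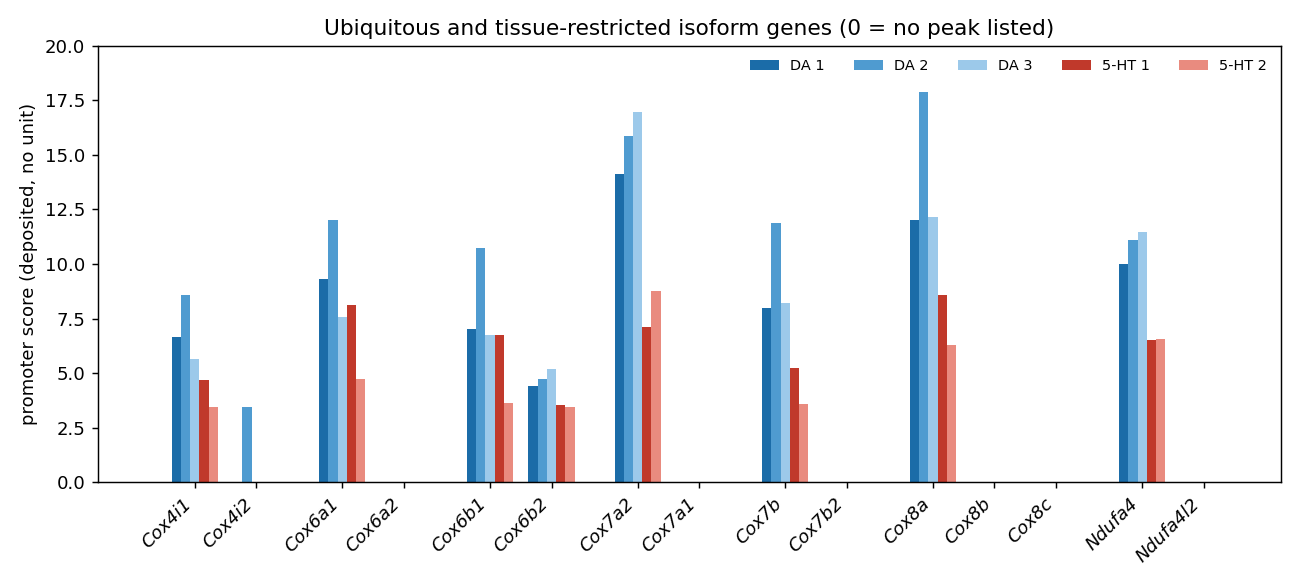
Deposited promoter score (vertical axis, no unit) of ubiquitous genes and their tissue-restricted forms, with 1 bar per library (blue, DA; red, 5-HT); a missing bar is a score of 0, meaning no peak. Of the 8 restricted genes, Cox6b2 has a bar in each library and Cox4i2 in DA replicate 2.

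The symbol rule also took 5 genes that are no subunit or assembly factor by the lists used here. Cox4nb, which lies head to head with Cox4i1, and Atp5s and Atp5sl had a peak in every library. Atp5l-ps1 and a second gene identifier under the symbol Ndufb8 (ENSMUSG00000091471.1) had none. The 8 members without a promoter peak in any library were these last 2 and the restricted genes Cox6a2, Cox7a1, Cox7b2, Cox8b, Cox8c and Ndufa4l2.

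Scores were then compared between DA and 5-HT libraries with limma on quantile-normalized log2 scores of the 10843 protein-coding genes with a promoter peak in all 5 libraries. At an adjusted p under 0.05, 3 promoters (0.0277%) were higher and 15 (0.138%) lower in DA. Of the 83 members tested, 0 were higher and 0 lower; at an unadjusted p under 0.05, 5 were higher and 4 lower, beside 749 and 761 of all promoters. The smallest adjusted p of a member was 0.113. The count depended on the setting in 2 cases: with log2 scores centred on the median, when 76 and 405 promoters passed in all, 1 member was higher (Atp5e) and 1 lower (Ndufb8), and without 5-HT replicate 1, when 526 and 595 promoters passed in all, 5 were higher (Atp5e, Ndufc2, Cox7c, Atp5o and Atp5a1) and 1 lower (Sdhc). In that setting the 5-HT group is 1 library, which is assumed to vary like the others. Without 5-HT replicate 2, 92 and 145 promoters passed in all, without DA replicate 2 none, and without DA replicates 1 or 3 0 higher and 2 lower each, with 0 members in each of these settings.

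The median difference, DA minus 5-HT, was 0.048 on the log2 scale over the 83 members and 1e-04 over all promoters tested, and 47 members (56.6%) had a positive difference, beside 50% of all. With median centring, the median was 0.029 over the members and -0.034 over all promoters, and 55.4% and 45.4% were positive. Without 5-HT replicate 1, the median of the members was 0.015, when 51.8% of the members and 50.5% of all promoters were positive. Without DA replicate 1, it was 0.028, beside 0.0038 over all promoters. With promoters that had a peak in at least 4 libraries, the medians were 0.091 over the members and 0.043 over all. With the percentile among all peaks in place of the log2 score, 81 of the 83 members and 95.3% of all promoters were positive. By complex, the medians were 0.0089 for complex I, -0.095 for complex II, 0.13 for complex III, -0.046 for complex IV and 0.11 for complex V, each with members on both sides of 0. All 3 DA values lay above both 5-HT values at 15 members (18.1%), beside 16.1% of all promoters tested, and below both at 8 members (9.64%), beside 15%. The shares of members whose groups do not overlap were thus near or under the background.

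The largest positive difference was that of Atp5e, which encodes the epsilon subunit in the central stalk of ATP synthase. Its normalized log2 scores were 3.35, 3.28 and 3.69 in the DA libraries and 2.87 and 2.51 in the 5-HT libraries. All DA values were above both 5-HT values, with a difference of 0.75 ± 0.18 (SE) and an adjusted p of 0.113 in limma. Uqcr11 had normalized log2 scores of 2.96, 2.98 and 2.66 against 2.26 and 2.42, a difference of 0.53 ± 0.17 with an adjusted p of 0.205. Differences of 0.45 for Atp5a1 (adjusted p 0.27), 0.40 for Ndufb2, an accessory subunit (0.277), and 0.37 for Ndufs8, a core iron-sulfur subunit of complex I (0.309), followed. At these 3 genes, too, the groups did not overlap. The size for Atp5a1 depended on the setting, with 0.17 after median centring, 0.71 without 5-HT replicate 1 and 0.27 without 5-HT replicate 2, and Ndufs8 had 0.24 without 5-HT replicate 2.

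The largest negative difference was that of Ndufb8, an accessory subunit of the membrane arm of complex I. Its normalized log2 scores were 2.33, 2.32 and 1.88 in the DA libraries and 2.98 and 2.76 in the 5-HT libraries. All DA values were below both 5-HT values, with a difference of -0.69 ± 0.18 (SE) and an adjusted p of 0.145 in limma. Atp5k, subunit e in the membrane part of ATP synthase, had 3.03, 2.84 and 3.19 against 3.64 and 3.49, a difference of -0.55 ± 0.16 with an adjusted p of 0.175. Smaller negative differences were -0.36 for Ndufa1 (adjusted p 0.311) and -0.35 for Ndufs5 (0.372), both accessory subunits of complex I, and -0.33 for Sdha (0.335); the sign of these 3 flipped with the percentile among all peaks, which moves the median of all promoters by 13.0 percentile points, and stayed negative with the promoter percentile (-12.7, -14.6 and -9.72 points). None of the 10 genes passed the threshold in the comparison as designed.

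**Figure D3:**
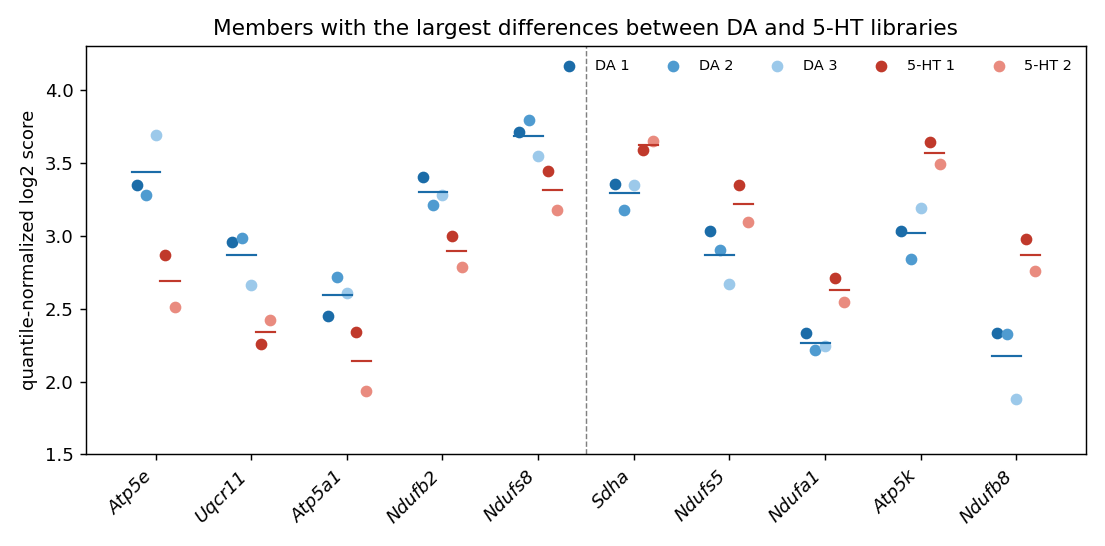
Quantile-normalized log2 promoter scores (vertical axis) of the 5 members with the largest positive and the 5 with the largest negative difference between DA and 5-HT libraries. Points are libraries and lines are group means; at these 10 genes the DA and 5-HT points do not overlap, and no adjusted p is under 0.113.

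Promoters of the members were often shared with a neighbouring gene. Distinct regions at their promoters numbered 90 for 86 members, and 82 members had 1 region. At 32 members (37.2% of those with a region) the same region also overlapped the promoter of a gene outside the list, beside 19.5% of all protein-coding genes with a region. A divergent neighbour, whose TSS lies on the other strand within 1 kb upstream, was annotated for 28 members (29.8%) and for 9.07% of all protein-coding genes. The share was 29.9% of the mitochondrial and 13.9% of the cytosolic ribosomal protein genes and 29.2% of the genes for electron carriers and assembly factors named below. All 28 had a peak in all 5 libraries, beside 84.5% of the genes with such a neighbour. The score of a shared region cannot be assigned to either gene. Examples, chosen after their values were seen, are Ndufs1 with Eef1b2 and Ndufb11 with Rbm10, whose start sites lie 3 bp apart, Ndufa7 with the ribosomal protein gene Rps28 at 29 bp, and Sdhd with Timm8b, which serves protein import into mitochondria, at 52 bp. Atp5j shares its region with Gabpa, which encodes the DNA-binding subunit of NRF2 (GABP), a regulator of OXPHOS genes; its scores of 11.9, 13.7, 12.8, 7.03 and 5.60 therefore belong to both.

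Regions with their centre inside a subunit or assembly factor gene, outside promoters of protein-coding genes, numbered 48 in 20 genes. Long gene models held most of them: 11 lay in Atp5o, annotated over 247290 bp, 9 in Ndufaf2 (106036 bp) and 7 in Ndufs4 (100300 bp). The 5 libraries had a peak at 14, 36, 32, 12 and 7 of the 48. Libraries with more peaks had more of these, except that DA replicate 2 had more than DA replicate 3, whereas the counts at promoters were nearly level. Peaks in the 3 DA libraries and neither 5-HT library were found at 5 of the 48, in Atp5g2, Ndufa12, Ndufa7, Ndufab1 and Ndufs4; of all regions outside promoters 14.5% had this pattern. A peak in all 5 libraries was found at 2, in Atp5o and Sdhaf2, beside 5.77% of regions outside promoters, and a peak in both 5-HT libraries and no DA library at 0, beside 0.431%.

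Known regulators of OXPHOS genes bind short motifs near the TSS. Motifs were searched by exact letters on both strands from 250 bases upstream to 50 bases downstream of the most upstream TSS of each gene. GCATGCGC, from the site of NRF1, occurred at 11 members, 11.7% (95% Wilson interval 6.66 to 19.8), and at 3.29% of all protein-coding genes. These letters can overlap their own reverse complement, so a single palindromic site may count as a pair of matches. CCGGAAG, the ETS motif that NRF2 (GABP) binds, occurred at 20 members, 21.3% (14.2 to 30.6), beside 10.8%. AAGATGGCG, from the site of YY1, occurred at 6 members, 6.38% (2.96 to 13.2), beside 1.84%, and its core AAGATGG, which lies within it, at 12, 12.8% (7.46 to 21.0), beside 6.74%.

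GGGCGG, the motif of SP1, occurred at 44 members, 46.8% (37.0 to 56.8), beside 43.4% of all genes and 64.2% of the genes with a promoter peak in all 5 libraries. TCAAGGTCA, from the site of the oestrogen-related receptors, occurred at 2 members, Sdhd and Atp5g3, 2.13% (0.585 to 7.43), beside 0.358%, and its core AAGGTCA, which lies within it, at 9, 9.57% (5.12 to 17.2), beside 3.92%. Genes with a peak in all 5 libraries are closer to the members in CpG content but not in GC content. Their median GC was 61.0%, beside 56.0% for the members and 55.0% for all genes. Their shares were 5.53% for NRF1, 17.5% for ETS, and 3.05% and 6.96% for YY1 and its core. For the receptor motif and its core they were 0.286% and 2.56%. Of the 83 members with a peak in all 5 libraries, 10.8% had the NRF1, 21.7% the ETS and 48.2% the SP1 motif. They had shares of 7.23% and 13.3% for YY1 and its core, and 2.41% and 9.64% for the receptor motif and its core. NRF1 and ETS letters occurred together at 3 of the 94 members, at 133 of 22375 protein-coding genes and at 115 of 10841 with a peak in all 5 libraries. None of these 5 factors had its motif or core at 31 members (33.0%), beside 45.6% of all genes and 25.9% of those with a peak in all 5 libraries. With the TSS nearest the centre of the highest-scoring region, the YY1 letters occurred at 10 members (10.6%) and 2.27% of all genes, their core at 18 members (19.1%) and 7.08%, and the ETS motif at 27 members (28.7%) and 11.6%. A match is a description of letters, and binding was not measured.

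Base composition of restricted and ubiquitous genes is given by medians, and no test was made between them. The ratio of observed to expected CpG in the window of 300 bases had a median of 0.832 at the 81 ubiquitous genes and 0.382 at the 8 restricted genes, beside 0.534 at all protein-coding genes and 0.775 at those with a peak in all 5 libraries. At the 8 members without a peak in any library it was 0.231. Some ubiquitous genes also had low ratios, such as Atp5j2 (0.104) and Atp5f1 (0.217). Median GC content was 56.7% at ubiquitous and 53.2% at restricted genes, with overlapping ranges of 36.0% to 77.0% and 45.3% to 63.3%. The ETS motif occurred at 0 of the 8 restricted genes, 23.5% of the ubiquitous genes and 10.8% of all genes. The shares of restricted and ubiquitous genes were 12.5% and 12.3% for NRF1 and also for the YY1 core, and 4 of the 8 restricted genes (46.9% of the ubiquitous) had the SP1 motif.

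Upstream sequences of 3 pairs of forms are shown. Each runs 5′ to 3′ on the strand of the gene and ends just before the most upstream TSS, with up to 200 bases of the reference (mm9), and stops before any annotated exon. Capitals mark the motifs named above, which occur within these bases at Cox7a2 alone, as an SP1 match that starts at base -44. The Cox7a2 stretch (chr9:79607661-79607860, minus strand) holds 12 CpG and that of Cox7a1 (chr7:30968990-30969189, plus strand) 4. The Cox8a stretch (chr19:7292107-7292306, minus strand) holds 11 CpG and that of Cox8b (chr7:148086346-148086545, minus strand) 1. Cox6b1 (chr7:31411171-31411370, minus strand) holds 10 CpG, and Cox6b2 (chr7:4704697-4704827, minus strand), the restricted gene with an open promoter in each library, holds 7 in a shorter stretch of 131 bases. Their GC contents were 51.5% and 61.1%.
Cox7a2: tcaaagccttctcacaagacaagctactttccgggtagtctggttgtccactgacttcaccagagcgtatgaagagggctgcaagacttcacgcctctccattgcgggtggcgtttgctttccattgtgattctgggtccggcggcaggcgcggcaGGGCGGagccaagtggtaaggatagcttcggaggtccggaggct
Cox7a1: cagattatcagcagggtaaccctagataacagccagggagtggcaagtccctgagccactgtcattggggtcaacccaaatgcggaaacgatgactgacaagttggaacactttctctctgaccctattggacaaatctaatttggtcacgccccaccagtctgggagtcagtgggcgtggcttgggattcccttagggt
Cox8a: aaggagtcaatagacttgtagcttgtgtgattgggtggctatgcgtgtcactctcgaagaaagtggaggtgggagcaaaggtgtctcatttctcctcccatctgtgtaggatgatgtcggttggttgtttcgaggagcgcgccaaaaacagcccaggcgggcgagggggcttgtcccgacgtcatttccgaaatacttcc
Cox8b: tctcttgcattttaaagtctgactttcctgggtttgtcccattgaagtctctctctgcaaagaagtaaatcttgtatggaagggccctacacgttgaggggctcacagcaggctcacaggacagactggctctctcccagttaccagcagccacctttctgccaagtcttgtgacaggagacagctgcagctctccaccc
Cox6b1: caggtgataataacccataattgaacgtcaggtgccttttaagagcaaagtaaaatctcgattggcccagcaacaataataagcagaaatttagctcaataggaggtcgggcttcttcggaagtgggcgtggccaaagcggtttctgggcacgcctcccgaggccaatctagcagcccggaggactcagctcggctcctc
Cox6b2: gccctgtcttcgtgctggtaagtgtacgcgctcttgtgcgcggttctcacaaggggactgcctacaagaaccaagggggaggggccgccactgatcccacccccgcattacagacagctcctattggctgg

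Further stretches show the promoter with the highest mean percentile of complex V, a promoter with several motifs, and that of a gene with a large positive difference. Atp5g1 (chr11:95936985-95937184, minus strand) has none of the searched letters in these 200 bases. Cox6a1 (chr5:115798991-115799190, minus strand) has a pair of overlapping NRF1 matches that start at bases -139 and -137, counted from the TSS, and SP1 matches at -116 and -21, with 20 CpG. Uqcr11 (chr10:79869576-79869775, minus strand) has an ETS match at -57. Capitals again mark the matches.
Atp5g1: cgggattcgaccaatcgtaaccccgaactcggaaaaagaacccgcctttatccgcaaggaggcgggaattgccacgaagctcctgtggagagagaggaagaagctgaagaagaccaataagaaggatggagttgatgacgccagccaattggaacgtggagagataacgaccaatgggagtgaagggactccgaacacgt
Cox6a1: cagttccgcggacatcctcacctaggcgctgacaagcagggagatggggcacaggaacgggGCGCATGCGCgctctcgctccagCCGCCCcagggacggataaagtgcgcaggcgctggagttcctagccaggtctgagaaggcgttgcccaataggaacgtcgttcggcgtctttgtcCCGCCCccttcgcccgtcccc
Uqcr11: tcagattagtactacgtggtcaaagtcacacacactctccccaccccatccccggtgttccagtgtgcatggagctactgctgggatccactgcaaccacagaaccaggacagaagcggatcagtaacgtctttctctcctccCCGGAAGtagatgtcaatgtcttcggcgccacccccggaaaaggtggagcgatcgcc

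Other genes of the pathway were described from lists. Of 20 regulators of OXPHOS genes and of mitochondrial DNA, 17 had a promoter peak in all 5 libraries and 0 passed the limma threshold in either direction, with a median difference of 0.044 over those tested. Gabpb2, a subunit of NRF2, and Esrrg, an oestrogen-related receptor, lacked a peak in 5-HT replicate 2 alone, and Mterf, named for a mitochondrial transcription termination factor, had none in any library. Of 24 genes for electron carriers and assembly factors, 22 had a peak in all 5 libraries and 0 passed the threshold, with a median difference of -0.059. Cox15, which serves haem synthesis for complex IV, lacked a peak in 5-HT replicate 2, and Cyct, the testis form of cytochrome c, had none in any library, whereas Cycs, the somatic form, had scores of 10.3, 14.9, 11.2, 8.23 and 6.94.

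Ribosomal protein genes, also expressed in most cells, were set beside the members. A promoter peak in all 5 libraries was found at 59 of 77 mitochondrial (76.6%) and 70 of 79 cytosolic ribosomal protein genes (88.6%), against 88.3% of the members. In each DA library the shares were 98.7% of the mitochondrial and 100% of the cytosolic genes, against 90.4% to 91.5% of the members. In 5-HT replicate 2 they were 77.9%, 89.9% and 88.3%, in the same order. The members include the 8 restricted forms and 5 genes outside the complexes. Of the 81 ubiquitous OXPHOS genes, 100% had a peak in each DA library, and 97.5% in 5-HT replicate 2 and in all 5 libraries. The median promoter percentiles were 58.1, 64.5, 59.8, 60.8 and 59.5 for the mitochondrial and 71.5, 74.2, 62.8, 63.8 and 60.1 for the cytosolic genes. In neither list did a gene pass the limma threshold, and the median differences were 0.064 and 0.085. No test was made between the lists.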

How the data were processed

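Per the labels and the methods, the authors trimmed paired-end ATAC-seq reads (Trimmomatic), aligned them to mm9 (Bowtie2), removed duplicates (Picard) and called peaks (MACS2) in each library; versions and peak threshold are not stated. Each deposited file gives a score for each region of a list common to all 5; the authors do not name its scale, and columns 7 to 9 hold -1. In 1 line a misspelled chromosome name was read as Y. Read depth is unknown, so no precision can be given for a single score.

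A gene's score was the highest among regions overlapping 1 kb upstream to 100 bp downstream of any annotated TSS (GENCODE, mm9). Differences were tested with limma 3.58.1 (R 4.3.3; moderated test with trend, Benjamini-Hochberg over all promoters tested) on quantile-normalized log2 scores of promoters with a peak in all 5 libraries. Tested on simulated data, quantile normalization called more unchanged promoters than nominal where changes were large, so median centring is given as well. The simulated libraries differed by a constant shift, which median centring removes by design. The simulation therefore cannot favour median centring for these data. Python 3.11.15, numpy 2.4.6, pandas 2.3.3 and scipy 1.17.1 did the rest. Alternatives varied the promoter window, TSS choice, overlap, peak threshold, normalization, replicate block and each library.

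The members and lists were chosen with earlier results of these data known; the 5 genes outside the complexes were set apart after the list was seen. Named genes are the restricted forms and their partners, in each complex the highest and lowest mean percentile, members without a peak in some library, members past the limma threshold (up to 15 in each direction), the 5 largest differences in each direction, and genes of the lists of regulators and of carriers and assembly factors without a peak in every library. RNA-seq libraries of the study were not used, since the description is of promoters.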

Additional observations from a re-analysis of the deposited data

How the results depend on the processing

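The number of members with a promoter peak in all 5 libraries stayed between 72 and 85 under every alternative except the 10000 highest-scoring peaks of each library, where it was 40 of 94 (4498 of all 22380 genes). In that setting 19 members (13452 of all genes) had no peak in any library, 1 (173) had a peak in the DA libraries alone (Uqcr10) and 2 (216) in the 5-HT libraries alone (Ndufb8 and Ndufs1). With as many peaks in each library as the fewest, 0 members had a peak in 1 group alone, while the DA pattern fell from 444 to 94 of all genes and the reverse rose from 3 to 507. With 2 kb upstream to 500 bp downstream, 5 members (7190 of all genes) had no peak and 1 (499) had a peak in the DA libraries alone (Cox6a2). With the centre of the region inside the promoter, 17 members (11726 of all genes) had no peak: regions whose centre falls outside the window no longer count. Leaving out 1 library gave 0 to 2 members with the DA pattern; the 2 come from leaving out 5-HT replicate 1, since 5-HT replicate 2 lacks peaks at Ndufaf1 and Atp5l. Setting the 5 genes outside the complexes aside, an alternative chosen after seeing the data, left 80 of 89 with a peak in all 5 libraries and 6 with none.

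With log2 scores centred on the median, limma called 1 member higher and 1 lower in DA, of 76 and 405 promoters in all. The cause was not tested. Leaving out 1 library gave 0 to 5 members higher and 0 to 1 lower; the calls come from leaving out 5-HT replicate 1, and the cause was not tested. Of all promoters, 526 and 595 passed without that library, 92 and 145 without 5-HT replicate 2, and at most 2 without a DA library, beside 3 and 15 with all 5. The median difference of the members was 0.048 in the comparison as designed, 0.015 without 5-HT replicate 1 and 0.028 without DA replicate 1. With a peak in at least 4 libraries it was 0.091, beside 0.043 over all promoters. With median centring it was 0.029, beside -0.034 over all promoters. The log2 difference of Atp5a1 ranged from 0.17 with median centring to 0.71 without 5-HT replicate 1. Every other alternative, among them the percentile among promoter peaks, chosen after seeing the data, gave 0 members called in both directions. With replicate number as a block (replicate block), 0 members were higher and 0 lower, and 3 and 9 promoters in all; DA replicate 3 is alone in its block, and 1 residual degree of freedom is left. For libraries with the same number, deviations from the group mean correlated at -0.0495 and 0.0195 across promoters. The deviations of the 5-HT libraries mirror each other by construction, so this check cannot settle whether such libraries pair.

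With the percentile among all peaks, the differences of Sdha (0.435), Ndufs5 (2.90) and Ndufa1 (7.55 percentile points) turned positive, while the median of all promoters moved by 13.0 percentile points; with the promoter percentile they stayed negative (-9.72, -14.6 and -12.7). Among promoter peaks instead of all peaks, the median percentile of the members was 66.8, 70.3 and 68.0 in DA replicates 1 to 3 and 62.6 and 60.7 in 5-HT replicates 1 and 2, lower by construction since promoter peaks score high. The median difference on that scale, DA minus 5-HT, was 6.72 points over the members and 4.23 over all promoters tested. This shift cannot be told apart from peak yield. With the TSS nearest the centre of the highest-scoring region, motif shares stayed within their intervals and most rose: NRF1 to 12.8%, ETS to 28.7%, YY1 to 10.6% and its core to 19.1%, SP1 to 47 of 94 members, and the core of the receptor motif to 13.8%, while the longer receptor motif stayed at 2.13%. The unknown read depth and the low peak number of 5-HT replicate 2 (22879) limit what a missing peak says.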
